A study of Acipenser schrenckii with 2 samples.

Results

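The microRNAs miR-10 and miR-196, which lie inside Hox gene clusters, were read in the gonads of Amur sturgeon (Acipenser schrenckii) by 19 of the 663 miRNA probes of a single-colour array. The members were selected by name: every miRNA probe called miR-10 or miR-196 after its species prefix, with any letter or arm, gave 11 miR-10 and 8 miR-196 probes. The series holds 2 arrays, and each carried the Cy3-labelled small RNA fraction of the gonad of 1 fish of 11 months, 1 female and 1 male, with the condition given as normal. The labels place the fish early in sex differentiation, and they name no strain, treatment or allele. The title of the series asks which miRNAs differ between the sexes.

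MicroRNAs are short RNAs cut from a hairpin precursor, and a seed near the 5′ end (bases 2 to 8) does most of the target recognition. miR-10 genes lie beside the group 4 Hox genes and miR-196 genes beside the group 9 Hox genes, and this placing is shared by vertebrates from fishes to mammals. Both miRNAs are expressed along the trunk in embryos, and both lower the output of Hox mRNAs: miR-196 directs cleavage of the Hoxb8 mRNA in mouse, and miR-10 represses hoxb1a and hoxb3a in zebrafish. In mammals miR-10a and miR-10b are also found in ovarian granulosa cells, and both families are abundant in kidney. The labels name gonad tissue and no sorted cells, so fewer cells of a type and less RNA per cell cannot be told apart.

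The chip reads each variant through a probe complementary to a listed target, and these targets are what the variants have in common and where they differ. The prefixes stand for zebrafish (dre), common carp (ccr), channel catfish (ipu), medaka, listed as Japanese killifish (ola), Atlantic halibut (hhi), olive flounder (pol) and fugu (fru). The 8 targets of the miR-10 5′ arm are shown because the sex difference varied among them, with the seed in capitals.
dre-miR-10a-5p: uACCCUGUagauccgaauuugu
ccr-miR-10b: uACCCUGUagaaccgaauuugu
dre-miR-10b: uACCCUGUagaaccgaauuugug
dre-miR-10c: uACCCUGUagauccggauuugu
ccr-miR-10c: uACCCUGUagauccggauuugug
ccr-miR-10d: uACCCUGUagaaccgaaugugu
dre-miR-10d-5p: uACCCUGUagaaccgaaugugug
fru-miR-10d: uACCCUGUagaaccgaaugugugug

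All 8 share the seed ACCCUGU, which no other probe of the chip has. Counted from 1 at the 5′ end, miR-10b differs from miR-10a by U12A, miR-10c from miR-10a by A16G, and miR-10d from miR-10b by U19G. Within a letter the targets differ only in the length of the 3′ end, 22 or 23 bases for miR-10b and miR-10c and 22, 23 or 25 for miR-10d. The letter is not the same in every species: the chip lists the target of ccr-miR-10d also as ipu-miR-10d and ola-miR-10d, and as pol-miR-10b-5p of olive flounder.

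The miR-196 targets are shown for the same reason, and their seed AGGUAGU is likewise found in no other probe of the chip.
ola-miR-196a: uAGGUAGUuucauguuguugg
dre-miR-196a: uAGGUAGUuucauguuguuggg
ipu-miR-196a: uAGGUAGUuucauguuguuggga
hhi-miR-196: uAGGUAGUcucauguuguuggg
dre-miR-196b: uAGGUAGUuucaaguuguuggg
dre-miR-196c: uAGGUAGUuugauguuguuggg
dre-miR-196d: uAGGUAGUuuuauguuguuggg
ipu-miR-196d: uAGGUAGUuuuauguuguugggc

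Relative to dre-miR-196a, hhi-miR-196 carries U9C, dre-miR-196b U13A, dre-miR-196c C11G and dre-miR-196d C11U. ola-miR-196a and ipu-miR-196a are the same miRNA with 21 and 23 bases against 22, and ipu-miR-196d is dre-miR-196d with 1 base more. The remaining 3 members are probes of the miR-10 3′ arm, the passenger strand that is mostly degraded: dre-miR-10a-3p, dre-miR-10d-3p and pol-miR-10b-3p. Members that share a letter, or whose targets differ by as little as 1 base, can bind the same RNA and are not independent readings. A probe made for another fish does not show that the sturgeon holds exactly that sequence.

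Of the chip's 663 miRNA probes, the female gonad gave a detected signal for 71.8% and the male gonad for 64.9%. Detection required 3 or more of a probe's 5 repeat spots to exceed the 95th percentile of empty spots, 103 for the female array and 113 for the male. Of the miRNA known best from vertebrate gonads, miR-202, 1 of 3 probes was detected, ipu-miR-202, with median spot intensities of 113 in the female and 553 in the male. Markers of other tissues were detected too: 20 of 22 striated muscle probes, 14 of 15 of smooth muscle and mesenchyme, 6 of 8 of kidney and gut and 6 of 6 of red blood cells. Further counts were 12 of 15 for leukocytes, 5 of 6 for endothelium, 10 of 19 for neurons and 2 of 4 for liver. Detection here means on either array, which held for 73.9% of all 663 probes. The kidney and gut count was near that share, and those of neurons and liver were below it. The kidney and gut list was the one with female-higher probes, 4 of 8, and its summed intensity above the empty-spot median was 5344 in the female and 3625 in the male. Lists with male-higher probes, besides miR-202, were male germ and multiciliated cells (3 of 5, sums of 1247 and 6447), liver (2 of 4, sums of 46.2 and 478) and leukocytes (1 of 15, sums of 31682 and 39738). Over all detected probes of the chip 4.69% were male-higher and 1.63% female-higher. These sums are not normalized, and the male array was brighter in general. After normalization the median difference of the detected leukocyte probes was -0.11 (log2), toward the female. The part of the listed cell types in the miR-10 and miR-196 signal was not tested. The unnormalized male minus female difference had a median of 0.37 (log2) over the 490 probes detected on either array. Differences are given after quantile normalization unless the scanner intensity is named. A single fish of each sex allows no test between them, and each ± is the SD over 5 repeat spots, which are technical.

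Of the 19 members 17 were detected on both arrays, and 2 were higher in the male gonad: dre-miR-10c, 4.14-fold, and ccr-miR-10d, 2.03-fold. A probe counted as higher when its log2 difference reached 1, the brighter array detected it and its female and male spots did not overlap. By this rule 4.69% of the chip's detected probes were male-higher and 1.63% female-higher, and no member was female-higher. With the limit lowered to 1.5-fold, 3 members were male-higher (10.2% of the chip) and 1 female-higher (7.76%). The median male minus female difference of the 17 detected members was 0.33 on the log2 scale, against -0.06 for all 490 detected probes. The families differed within this: all 8 probes of the miR-10 5′ arm lay above 0 (median 0.36, from 0.16 to 2.05), while miR-196 had 4 above and 4 below 0 (median 0.03, from -0.72 to 0.54). Of all 490 detected probes 211 lay above 0 and 274 below, so the even split of miR-196 was near that of the chip. The 16 probes of the miR-10 5′ arm and miR-196 stand for few distinct miRNAs, as their targets show.

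**Figure D1:**
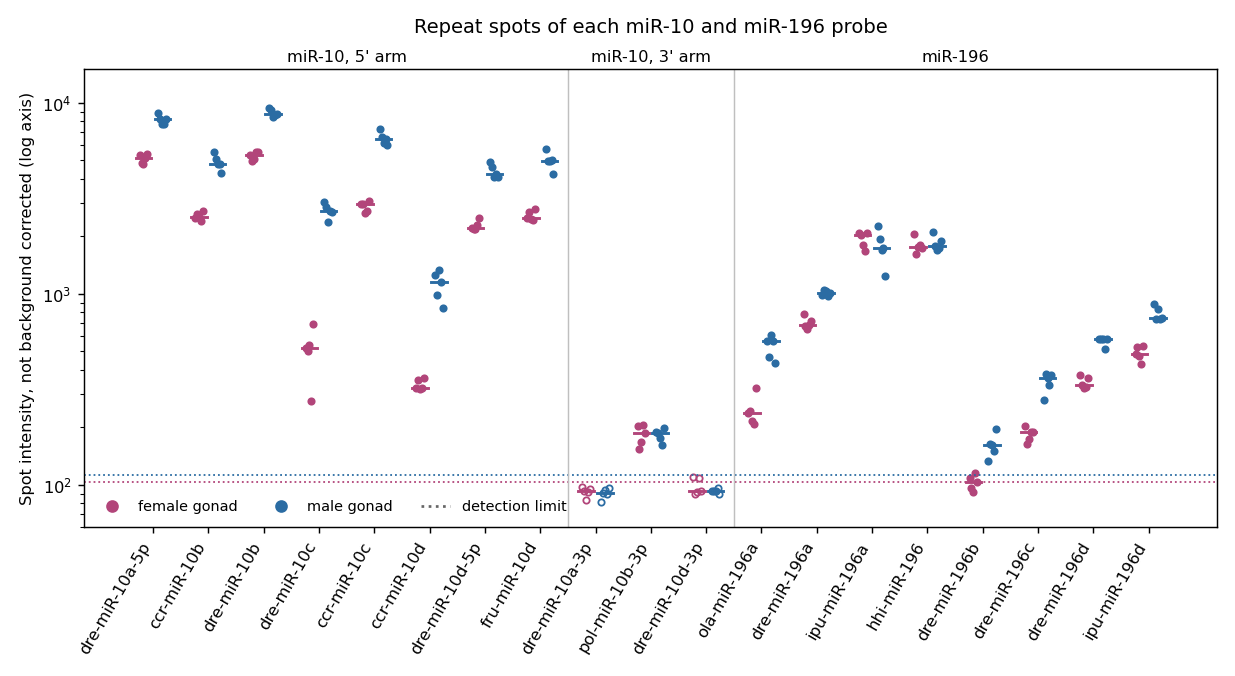
Intensity of each of the 5 repeat spots (points, log axis, not background corrected) of every miR-10 and miR-196 probe on the female and the male array, with the median as a bar, open points for undetected probes and dotted lines at the detection limits of 103 (female) and 113 (male). The 8 probes of the miR-10 5′ arm have every male spot above every female spot, while the spots of hhi-miR-196 and ipu-miR-196a overlap.

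The miR-10 5′ arm, the strand that is loaded to repress targets, read brighter in the male gonad in every spot of every probe. On the scanner scale all 8 had non-overlapping spots with the male above, as had 53.3% of all detected probes. After normalization all 8 still did, against 19.4% of all detected probes. In miR-196 the scanner spots were apart with the male above in 6 of 8 probes, against 53.3% of the chip, and overlapped in hhi-miR-196 and ipu-miR-196a. No member was apart on that scale with the female above, against 2.45% of the chip. After normalization 1 of the 8 miR-196 probes was apart with the male above and 2 with the female above. Of all detected probes 19.4% and 23.7% were.

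dre-miR-10c, the zebrafish miR-10c target of 22 bases, carried the largest difference among the members. Its female spots read 518, 500, 540, 275 and 699, and its male spots 3012, 2852, 2365, 2728 and 2680. Every male spot was more than 3 times the highest female spot. The normalized log2 level was 9.12 ± 0.51 in the female and 11.17 ± 0.13 in the male, a difference of 2.05. The wide female SD came mostly from the spot of 275, which lay 0.95 below the median of its probe on the log2 scale. The nearest spots of other miR-10 5′ probes in that column of the female array were dre-miR-10b, 1 row away (5512), and 2 at 2 rows away. The latter were dre-miR-10a-5p (5160) and dre-miR-10d-5p (2287). Each read within the range of its probe's other spots on that array, and a local fault of the array was not tested. Without the spot of 275 the difference was 1.85, still past the size limit.

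ccr-miR-10c, whose target is that of dre-miR-10c with 1 more base, read 2939, 2941, 2636, 2705 and 3069 in the female and 7340, 6644, 6149, 6451 and 6052 in the male. The groups of spots did not overlap. The levels were 11.76 ± 0.09 and 12.35 ± 0.11, a difference of 0.59, under the limit. The miR-10c probes had the same direction, and their differences lay 1.46 apart on the log2 scale for targets that differ by 1 base in length.

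The miR-10d probes repeated this. ccr-miR-10d, of 22 bases, read 320, 352, 318, 322 and 361 in the female and 1262, 989, 1336, 1157 and 838 in the male. No spots overlapped, and the levels of 8.72 ± 0.09 and 9.74 ± 0.28 gave a difference of 1.02, just past the limit. With any 1 repeat spot left out the difference was 0.91 to 1.13, and it missed the limit without spot 1, 3 or 4. dre-miR-10d-5p, of 23 bases, had median spots of 2215 and 4240, levels of 11.42 ± 0.08 and 11.78 ± 0.12, and a difference of 0.36. fru-miR-10d, of 25 bases, had median spots of 2493 and 4982, levels of 11.62 ± 0.09 and 11.98 ± 0.16, and a difference of 0.35. The probes with the longer targets differed from each other by less than their spot SDs, and the difference of ccr-miR-10d was larger than theirs by more than its own spot SD of 0.29.

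miR-10a and miR-10b, which in mammals lie beside Hoxb4 and Hoxd4, showed the smallest differences of the arm. Those of miR-10b lay within the spot SDs of dre-miR-10d-5p (0.36) and fru-miR-10d (0.35). dre-miR-10a-5p read 5364, 4834, 4762, 5160 and 5396 in the female and 8856, 8219, 7763, 7721 and 8255 in the male. Its level was 12.57 ± 0.08 and 12.73 ± 0.08, a difference of 0.16 (1.12-fold). dre-miR-10b had median spots of 5332 and 8742 and differed by 0.31, and ccr-miR-10b, with 1 base less, had medians of 2522 and 4763 and differed by 0.33. The 2 lengths of miR-10b thus gave the same difference within the spot SDs, unlike those of miR-10c and miR-10d.

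The miR-10 3′ arm gave little signal. dre-miR-10a-3p and dre-miR-10d-3p were detected on neither array, with median spots of 93.2 and 92.7 in the female and 90.7 and 92.8 in the male, near the empty spots (medians of 86.7 and 80.5). pol-miR-10b-3p was detected on both, with female spots of 203, 154, 167, 205 and 187 and male spots of 188, 187, 175, 162 and 198. These overlap on the scanner scale, and the medians were almost equal (187 in both). After normalization its level was 7.70 ± 0.20 in the female and 7.15 ± 0.12 in the male, a difference of -0.56 with no overlap of spots, a pattern that 23.7% of all detected probes had with the female above. Without normalization the difference of this probe was -0.02.

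**Figure D2:**
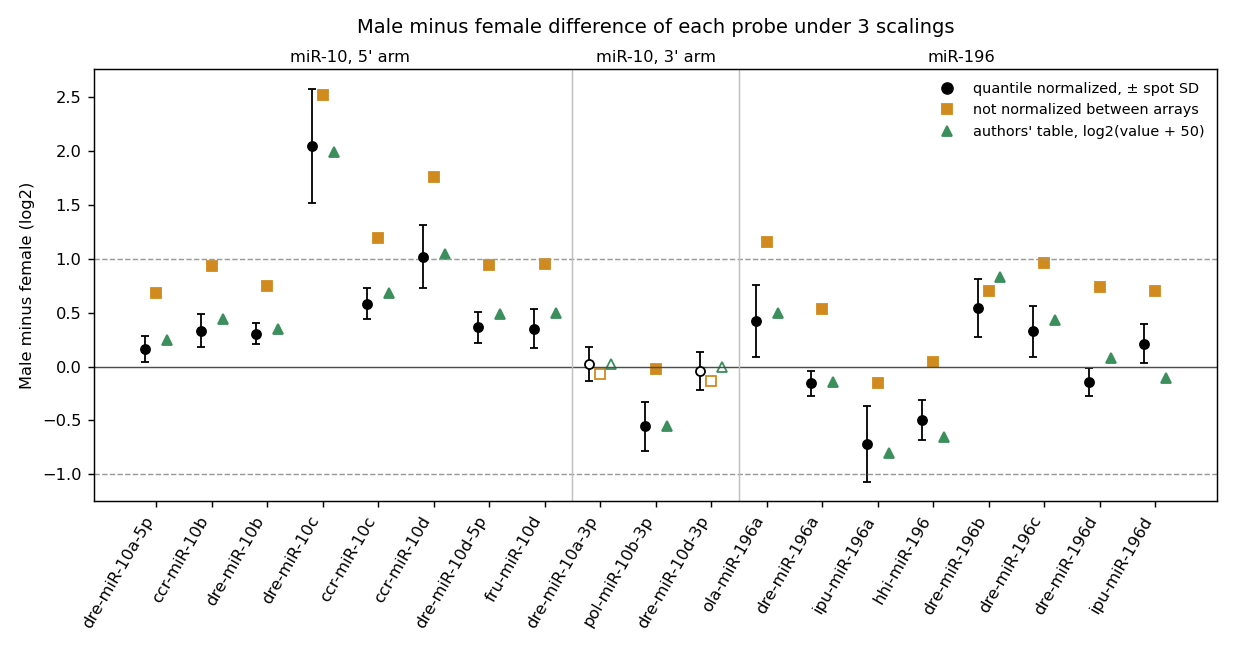
Male minus female difference (log2) of each probe after quantile normalization (black, with the combined SD over the repeat spots), without normalization between the arrays (orange squares) and in the authors' deposited table (green triangles), with open symbols for undetected probes and dashed lines at the size limit of 1. dre-miR-10c and ccr-miR-10d reach the limit in all 3, and hhi-miR-196 and ipu-miR-196a lie lowest among the detected 5′ targets.

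After quantile normalization the miR-196 probes divided evenly around 0. That split moved with the scaling: 5 of the 8 lay above 0 under the scalings by the 75th percentile, 6 with cyclic loess and 7 without normalization. After quantile normalization the values of 3 miR-10 probes lay above the highest of miR-196. Those of the other miR-10 5′ probes lay within the miR-196 range. The number above that range was 1 with plain background subtraction. It was 2 in the authors' deposited table, with a background offset of 16 in place of 50, and without repeat spot 1 or 4. Of the 3, ccr-miR-10c (0.59) lay just above the highest miR-196 probe, dre-miR-196b (0.54), whose female spots were at the detection limit. hhi-miR-196, the halibut form with U9C, read 2047, 1619, 1749, 1792 and 1735 in the female and 2116, 1772, 1688, 1729 and 1891 in the male. The spots overlap and the scanner medians are 1749 and 1772. Its normalized level was 11.03 ± 0.13 in the female and 10.53 ± 0.13 in the male, a difference of -0.50, or 0.04 without normalization. The probe was level on the scanner scale, on which the male array was brighter in general. Its normalized spots did not overlap, a pattern that 23.7% of all detected probes had with the female above.

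The miR-196a probes spread over more than 1 on the log2 scale for what is the same miRNA. ola-miR-196a, of 21 bases, read 239, 243, 216, 209 and 322 in the female and 566, 465, 608, 564 and 436 in the male, a difference of 0.42. dre-miR-196a, of 22 bases, read 782, 675, 651, 686 and 718 against 984, 1050, 1039, 973 and 1015, a difference of -0.15. ipu-miR-196a, of 23 bases, read 2088, 2030, 1805, 1684 and 2085 against 2272, 1926, 1701, 1740 and 1241, a difference of -0.72 (1.64-fold with the female above). On the scanner scale the male spots lay above the female spots for the targets of 21 and 22 bases and overlapped with them for that of 23 bases. None of the 3 reached the limit.

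None of the other miR-196 variants passed. dre-miR-196d, with C11U, had median spots of 334 and 579 and differed by -0.14. ipu-miR-196d had medians of 482 and 747 and differed by 0.21. In the authors' deposited table the signs of these probes were reversed, 0.08 for dre-miR-196d and -0.11 for ipu-miR-196d. dre-miR-196c, with C11G, had medians of 188 and 364 and differed by 0.33. dre-miR-196b, with U13A, had female spots of 109, 96.3, 91.6, 115 and 104 at the detection limit and male spots of 134, 163, 161, 151 and 197, and differed by 0.54. Background handling moved this probe most: plain subtraction of the empty-spot median gave it a difference of 1.67, past the limit. With that background step 3 members were male-higher and none female-higher, and so were 7.76% and 6.73% of all detected probes.

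**Figure D3:**
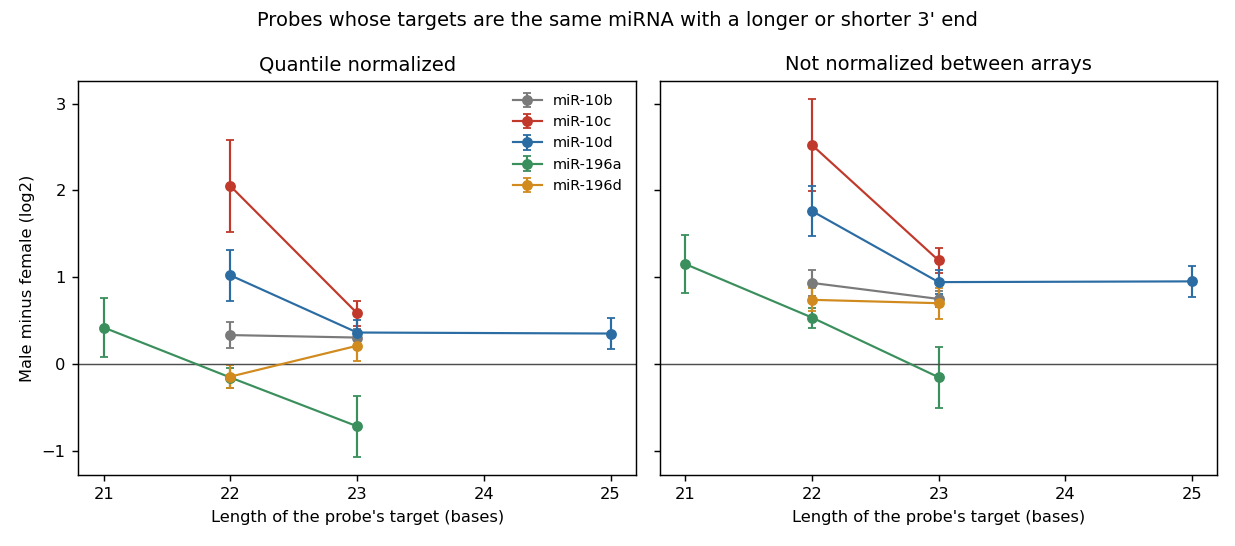
Male minus female difference (log2, with the combined SD over repeat spots) against the length of the probe's target, for variants whose targets are the same miRNA with a longer or shorter 3′ end, after quantile normalization (left) and without normalization (right). In miR-10c, miR-10d and miR-196a the shortest target lies highest in both panels, the line of miR-10b is nearly flat in the left panel, and that of miR-196d runs upward there (from -0.14 to 0.21).

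Set side by side, the members form 8 pairs in which 1 target holds the other whole and is at most 2 bases longer. In 7 of the 8 the probe with the shorter target lay further toward the male. Over the 188 such pairs of detected probes on the chip this was so in 89 (47.3%), near an even split. The member count includes the miR-10b pair (gap of 0.03) and dre-miR-10d-5p with fru-miR-10d (0.01). Both gaps were below the spot SDs of their probes and show no direction after quantile normalization. The member pairs share probes, 5 of the 8 stem from miR-10d and miR-196a, and the count is a description. The gap between dre-miR-10c and ccr-miR-10c (1.46) ranked 2 of the 188 by size, that between ola-miR-196a and ipu-miR-196a (1.14) ranked 8, and the chip's median gap was 0.15. Without normalization the same gaps were 1.33 and 1.30 and ranked 5 and 6, and in the authors' deposited table they were 1.31 and 1.30 and had ranks of 2 and 4. The count was 7 of 8 in both of these as well, where the chip's share was 51.1% and 56.9%. It again included gaps as small as 0.04 without normalization and 0.09 in the authors' table. The exception was the miR-196d pair after quantile normalization, and in the others it was dre-miR-10d-5p with fru-miR-10d, with a gap of -0.01 in each. In the member pairs the shorter target also had the lower female median intensity. It was 518 against 2939 in miR-10c, 239 against 2030 for ola-miR-196a and ipu-miR-196a, and 2522 against 5332 in miR-10b. The part of signal level in the gaps was not tested.

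The array's control probes did not all shift alike between the arrays. Before normalization and above the empty-spot median, 15 control probes with M in their names had a male over female ratio of 2.10 (median) and 15 with P in their names 0.855. What these controls contain was not analysed here, and their part in the differences among the miR-10 and miR-196 variants was not tested.

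The order of the family medians was the same under every scaling tried, and the ranges of the families overlapped in each. The median difference of the miR-10 5′ arm exceeded that of miR-196 by 0.32 as reported, by 0.25 without normalization and by 0.50 in the authors' deposited table, and by 0.25 to 0.50 over the 19 alternatives. The 8 miR-10 5′ probes lay above 0 in each of the 19, where the median of all detected probes was between -0.23 and 0.37. Alternatives that change only the detection rule, the size limit or the overlap rule repeat the reported differences. The scalings by the 75th percentile and no normalization move every probe alike, so their gap between the families is 0.25 in each. The median of miR-196 ranged from -0.01 to 0.70 and was below 0 only in the authors' table. hhi-miR-196 lay below 0 in 18 of 19 alternatives, the exception being no normalization, and ipu-miR-196a in all 19. Without normalization 4 members passed the size rule toward the male, as did 15.1% of all detected probes: ccr-miR-10c (1.19) and ola-miR-196a (1.15) joined dre-miR-10c and ccr-miR-10d.

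**Figure D4:**
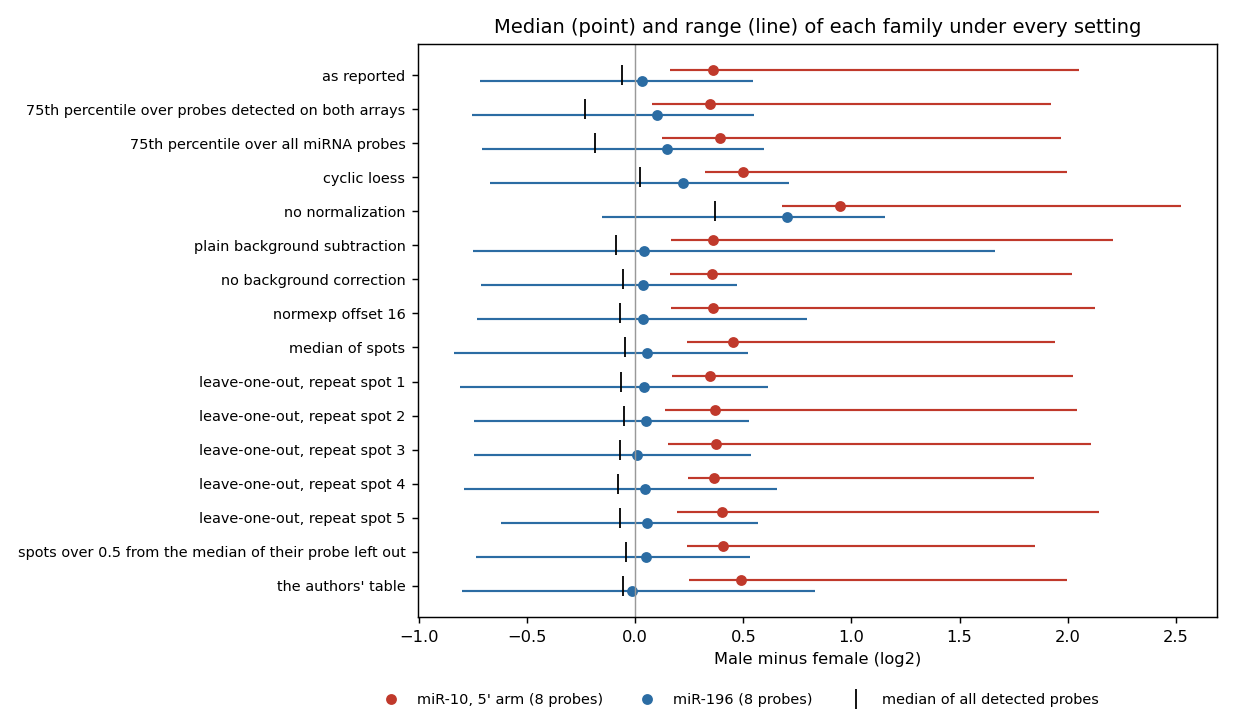
Median (point) and range (line) of the male minus female difference (log2) of the 8 miR-10 5′ probes and the 8 miR-196 probes under each way of processing the arrays that changes these values, with the median of all detected probes as a tick. The miR-10 median lies to the right of the miR-196 median in each row, by 0.25 to 0.50 over the alternatives.

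The authors' deposited table, made from the same arrays, holds values for all 19 members. It gives dre-miR-10c 501 in the female and 2148 in the male, a ratio of 4.28, and ccr-miR-10d 327 and 729, a ratio of 2.23. It gives hhi-miR-196 2153 and 1351, ipu-miR-196a 2306 and 1302, ratios of 1.59 and 1.77 with the female above. The table is not an independent measurement, and its normalization is not stated.

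miR-99 and miR-100, the nearest relatives of miR-10 outside the Hox clusters, were read by 7 probes. The 6 detected ones have targets 3 or 4 mismatches from dre-miR-10a-5p, and all 6 lay above 0, with a median of 0.24 and 1 past the rule. That probe, ola-miR-100, differed by 1.27, and by 0.32 without spots far from the median of its probe, and the smallest difference was 0.11 for dre-miR-99. dre-miR-100 differed by 1.05, but its spots overlapped, with a female spot SD of 1.75. The 5 miR-125 probes had 4 detected and none past the rule, with a median of 0.21. The largest of these, 0.87 for dre-miR-125a, had a female spot SD of 0.95. Of all 490 detected probes 211 lay above 0. The chip holds no miR-615 probe, a further Hox cluster miRNA of mammals.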

How the data were processed

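Per the file headers, the scanner files give the median Cy3 intensity of each of 3968 spots; these deposited values are not background corrected, with software not stated. Per the labels, small RNAs were isolated by size, poly(A) tailed and tagged for staining. The authors' deposited table gives each probe a linear intensity, of unstated normalization, and served as an alternative (log2 after adding 50). Intensities were background corrected with normexp (offset 50), averaged as log2 over 5 spots and quantile normalized over the 663 miRNA probes (R 4.3.3, limma 3.58.1; Python 3.11.15, pandas 2.3.3). Quantile normalization cannot show a global difference between the sexes. Commas marking digits were removed. Targets were aligned without gaps over at least 18 bases. Every member was named; miR-99, miR-100 and miR-125 were counted. Members and lists were chosen with earlier results of these data known. The size rule was tested on simulated spots drawn from the female array, with planted changes well past the limit. Changes were planted only in probes of middle intensity with a small spot SD, and the simulated spot spread was capped. That test does not cover recovery in probes near the limit, dim probes or probes with a wide spot SD such as dre-miR-10c. Nor does it cover variation between fish. Precision is limited by having 1 array per sex. No sturgeon genome was used, so no position is given.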

Additional observations from a re-analysis of the deposited data

How the results depend on the processing

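Of 19 alternatives, which include the authors' deposited table, dre-miR-10c passed the size rule in 19 and ccr-miR-10d in 15. ccr-miR-10d missed it without background correction, where 1 member was male-higher, and on leaving out a repeat spot (1 to 2 members male-higher, with ccr-miR-10d at 0.91 to 1.13). Without normalization 4 members were male-higher and the median difference of detected members was 0.75; over the chip 74 probes were then male-higher and 0 female-higher, against 23 and 8. Plain background subtraction gave 38 and 33. With a limit of 1.5-fold, 1 member, ipu-miR-196a, was female-higher and 50 and 38 probes were past it on the chip. The alternative that leaves out spots over 0.5 from the median of their probe was chosen after seeing the data. No member changed direction once past the rule. A lower size limit or no overlap rule could only keep a call made under the reported rule. No paired analysis was possible because each sex has 1 array. Dim probes such as dre-miR-196b lie at the detection limit, and its difference moved with both the background step and the scaling between the arrays. It was 1.67 with plain background subtraction and 0.83 in the authors' deposited table. Scaling by the 75th percentile gave 0.10 over probes detected on both arrays and 0.15 over all miRNA probes.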

Other observations

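The repeat spots of a probe lie at the same 5 places on both arrays, and the difference of the miR-10 5′ arm varied with the place. Its median over the 8 probes was 0.58 at the first listed place and 0.17 at the fifth, with all 8 above 0 at each place. For the 490 detected probes the medians at these places were -0.04 and -0.16. On the male array the first place held the brightest spot in 63.5% of detected probes, and on the female array 46.9% had it there and 35.3% at the fifth. ccr-miR-10d differed by 1.29 at the first place and by 0.51 at the fifth. dre-miR-10c differed by 2.10 at the first place and by 1.49 at the fifth. At the fourth place, that of its female spot of 275, it differed by 2.90.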
